A study of Mus musculus with 42 samples.

Results

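The genes described here are the 3 subunits of the TSC complex and the core of mTORC1 around it. They were taken by gene name as Tsc1, Tsc2, Tbc1d7, Rheb, Mtor, Rptor, Mlst8, Akt1s1, Rps6kb1 and Eif4ebp1, and all 10 were found among the 54532 genes of the deposited tables. Their mRNA was followed in 42 whole-kidney libraries of C57BL/6 mice, which form 14 groups of 3 libraries each.

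The TSC complex is built from hamartin (Tsc1), tuberin (Tsc2) and Tbc1d7, and tuberin carries the GTPase-activating domain that switches the small GTPase Rheb off. GTP-bound Rheb activates mTORC1 on the lysosome. In mTORC1 the kinase mTOR works with raptor (Rptor), which recruits substrates, with Mlst8, which binds the kinase domain, and with PRAS40 (Akt1s1), an inhibitory partner that AKT phosphorylates. S6 kinase (Rps6kb1) and the translational repressor 4E-BP1 (Eif4ebp1) are the classical substrates of the complex. Loss of either TSC gene leaves mTORC1 active and causes tuberous sclerosis complex, a disease in which kidney cysts and angiomyolipomas are common. All of these regulatory steps act on proteins, whereas the values given here are mRNA levels.

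In the CaggCreERT2 cohort Cre is made in the whole body and becomes active with tamoxifen, which the pups received through the milk of mothers injected on the days after birth, and kidneys were taken at P30. The groups were control, Tsc2 KO (Cre with Tsc2 fl/fl), Tfeb KO (Cre with Tfeb fl/fl) and the double knockout DKO (Cre with both). The study's text gives the sequenced controls of this cohort as Cre-positive with unfloxed Tsc2 and exposed to tamoxifen, and the labels call them wild type. In the KspCre cohort Cre is driven by the promoter of Ksp-cadherin (Cdh16), which is active in tubular epithelium from before birth, the same 4 genotypes were used with Cre-negative controls, and kidneys were taken at P50. A further KspCre cohort held control, Tsc2 KO and DKO mice that had received either vehicle or rapamycin, an allosteric mTORC1 inhibitor, at 1 mg/kg by intraperitoneal injection 3 times a week from day 25 for 11 injections, with kidneys at P50. Whole kidney also holds cells in which Cre is not active, and counts per gene do not separate floxed exons from the others. A lower value in such bulk tissue may come from fewer cells of a type or from less RNA per cell, and these cannot be told apart. The labels number the libraries of a group without naming animals, so the p-values measure the spread between these libraries.

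Libraries held 14926050 to 22807605 counts on genes (median 17802376), and the 10 genes had between 71 counts (Mlst8) and 3890 counts (Mtor) in a library. Several libraries stood apart or went against a label. In the CaggCreERT2 cohort 4 count columns carried another library name than the FPKM column they belong to, 2 of them with another genotype. Groups here follow the FPKM table. Under the names of the count table, a library called Tfeb KO would hold 5.26 FPKM of Tsc2 and a library called DKO 10.2 FPKM. The summed FPKM of 4 adrenal cortex markers (Cyp11a1, Cyp11b1, Cyp21a1 and Star) was above 10 in 6 libraries, Tfeb KO 1 and 2 of the CaggCreERT2 cohort (145 and 19.4), vehicle-treated Tsc2 KO 1 and 2 (914 and 30.9) and vehicle-treated DKO 1 and 2 (189 and 2623). KspCre DKO 1 had a summed macrophage marker level of 318 FPKM, against at most 113 FPKM in any Tsc2 KO library of that cohort. By Xist and Ddx3y the CaggCreERT2 controls were 3 males, the Tsc2 KO libraries 1 male and 2 females, the Tfeb KO libraries 3 females and the DKO libraries 2 males and 1 female, whereas every KspCre library was from a female. The kidney markers Umod, Slc34a1, Aqp2, Nphs1 and Cdh16 summed to at least 1396 FPKM in every group. Tfeb itself was at 2.73 to 3.73 FPKM in Tfeb KO against 4.57 to 8.02 FPKM in control of the CaggCreERT2 cohort. In the KspCre cohort it was at 4.32 to 5.25 FPKM in Tfeb KO against 5.85 to 6.24 FPKM in control. Tsc2 KO of that cohort, which kept Tfeb, held 3.66, 3.96 and 6.12 FPKM, a range that overlapped both. DKO of that cohort held 2.65 to 4.09 FPKM.

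Coordinates are those of mm10. Tsc2, the gene the study targets, lies on the minus strand of chr17:24595816-24632630. Tsc1 lies on the plus strand of chr2:28641228-28691167, Tbc1d7 on the minus strand of chr13:43151740-43171501 and Rheb on the minus strand of chr5:24802823-24842624. Mtor is on the plus strand of chr4:148448611-148557683, Rptor on the plus strand of chr11:119602905-119899576 and Mlst8 on the minus strand of chr17:24473550-24479078. Akt1s1 is on the plus strand of chr7:44848991-44855421, Rps6kb1 on the minus strand of chr11:86498871-86544805 and Eif4ebp1 on the plus strand of chr8:27260329-27276674. The libraries were made without strand information, so reads of overlapping genes on opposite strands cannot be told apart. Tsc2 shares 693 exonic bases with Pkd1, the polycystin-1 gene on the other strand, Mlst8 shares 997 with Bricd5, Rps6kb1 155 with Rnft1, Akt1s1 89 with Tbc1d17 and 73 with Mir707, and Rptor 84 with its antisense gene Rptoros. Angptl7 lies inside Mtor on the other strand and shares no exonic base with it.

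RefSeq promoter windows of GRCm38.p6, 250 bases before to 50 bases after the start, were at hand for 9 of the 10 genes (not for Eif4ebp1). They were searched on both strands for CACGTG, the palindromic E-box that TFEB and its relatives can bind, because Tfeb is the other gene deleted in this study. It occurred in the windows of Rheb and Tbc1d7, and in 7.15% of the 32851 windows of all genes. The windows of these 2 genes are shown around the match, with the E-box in capitals, both on the minus strand.
Rheb, chr5:24842440-24842469: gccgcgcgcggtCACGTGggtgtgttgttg
Tbc1d7, chr13:43171537-43171566: ccggttaacatcCACGTGtgggtgggactc
The Rheb match begins at position -96 from the RefSeq start and lies within an annotated Rheb exon, and the Tbc1d7 match at position -53. These are matches of letters and not measured binding sites, and the levels of both genes in the Tfeb KO groups are given below.

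FPKM, fragments scaled by the length of the gene model and by library size, allow levels of different genes to be set side by side. In CaggCreERT2 control kidneys Akt1s1 had the highest level of the 10 genes at 28.1 ± 2.23 FPKM (SD, n = 3). Mtor (12.7 ± 1.31), Rheb (11.9 ± 0.238), Eif4ebp1 (11.2 ± 0.657) and Tsc2 (10.3 ± 0.445) followed. In this order the ranges of Mtor and Rheb overlapped, as did those of Eif4ebp1 and Tsc2. The 5 lower genes were Rps6kb1 (3.98 ± 0.208), Tsc1 (3.83 ± 0.405), Tbc1d7 (3.73 ± 0.318), Rptor (3.65 ± 0.544) and Mlst8 (3.35 ± 0.333), and each overlapped its neighbours. Akt1s1 was also highest among KspCre controls (26.9 ± 1.08), followed by Mtor (19.2 ± 4.94), Rheb (10.9 ± 0.666), Tsc2 (8.93 ± 0.289) and Eif4ebp1 (8.27 ± 1.03), the last 2 with overlapping ranges. In vehicle-treated KspCre controls the libraries of Akt1s1 (12.6 to 22.2 FPKM) and Mtor (13.8 to 18.9 FPKM) overlapped, so their order is not given. The level of Tsc2 mRNA per length was above that of its partner Tsc1 in every untreated or vehicle-treated control library, 8.59 to 10.6 FPKM against 3.16 to 5.33 FPKM.

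**Figure D1:**
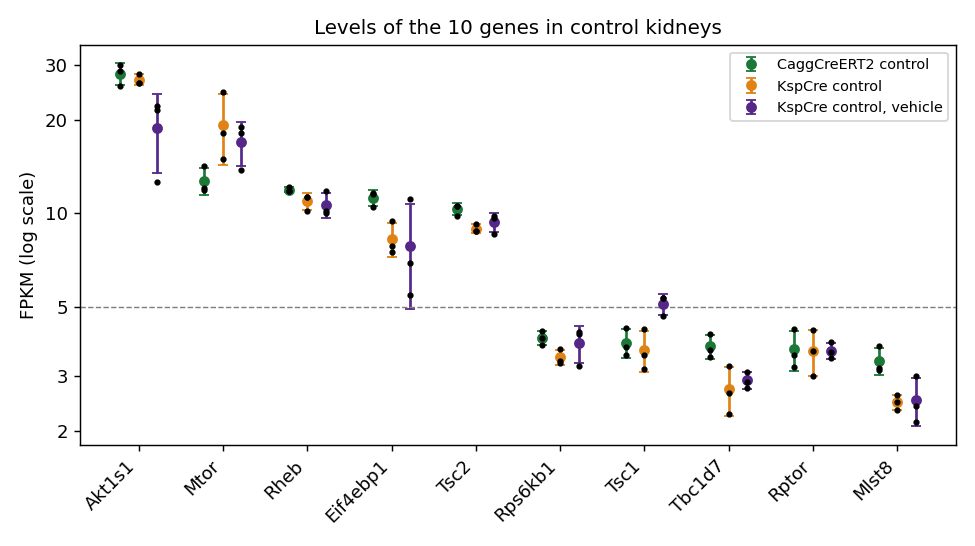
Levels of the 10 genes in 3 control groups, in FPKM on a log axis, with black points for single libraries and coloured points with bars for the mean and SD of 3 libraries. The dashed line marks the mean of 5 FPKM that a gene had to reach in a group compared to be called, and 5 genes lie below it in the CaggCreERT2 controls.

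A gene was called where edgeR's quasi-likelihood test gave a Benjamini-Hochberg adjusted p of at most 0.05 over all genes tested and its mean FPKM reached 5 in a group compared. Tbc1d7, Rptor, Mlst8 and Rps6kb1 stayed under 5 FPKM in all 14 groups, so 6 genes at most could be called. In Tsc2 KO against control 4 of the 6 members that reached 5 FPKM were called in the CaggCreERT2 cohort, where 38.4% of the tested genes that reached 5 FPKM were called. The count was 2 in the KspCre cohort (18.2% of such genes) and 6 in vehicle-treated KspCre mice (48.5%). By direction, 23.0% of these genes rose and 15.5% fell in the CaggCreERT2 cohort, 9.42% rose and 8.74% fell in the KspCre cohort, and 23.8% rose and 24.6% fell in vehicle-treated mice. Tsc2 was lower and Tsc1 higher in all 3 cohorts. The median log2 change of the 10 genes was -0.07, 0.04 and 0.20, beside 0.00, -0.01 and 0.01 over all genes tested.

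In Tfeb KO against control no member was called in either cohort (0.0256% of genes were called in CaggCreERT2 and 0% in untreated KspCre mice). In edgeR's test 1 member was below an unadjusted p of 0.05 in each, Mtor in CaggCreERT2 and Tsc1 in untreated KspCre mice, and DESeq2 called 0 members in both. DKO against Tsc2 KO gave 1 called member in CaggCreERT2 mice (14.5%), 0 in untreated KspCre mice (0.286%, 1 member below an unadjusted p of 0.05 in edgeR's test and 0 called by DESeq2) and 1 in vehicle-treated mice (29.5%). DKO against control gave 3 (14.9%), 1 (3.89%) and 1 (8.42%) in the same order. DKO against Tfeb KO gave 3 in CaggCreERT2 mice (18.1%) and 2 in untreated KspCre mice (8.09%). Rapamycin against vehicle gave 0 in controls (0.0664% of genes, with 0 members below an unadjusted p of 0.05 in edgeR's test and 0 called by DESeq2), 5 in Tsc2 KO (38.5%) and 1 in DKO (7.43%). Rapamycin-treated Tsc2 KO against rapamycin-treated control gave 1 (0.821%). These shares are over genes that reached 5 FPKM, as 6 of the members did in Tsc2 KO against control, and Tsc2 among them was the targeted gene. Only 5 members reached it in Tfeb KO against control and in untreated KspCre DKO against control or Tfeb KO. The same held for rapamycin-treated Tsc2 KO against rapamycin-treated control. Comparisons of 1 cohort share libraries and are not independent.

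**Figure D2:**
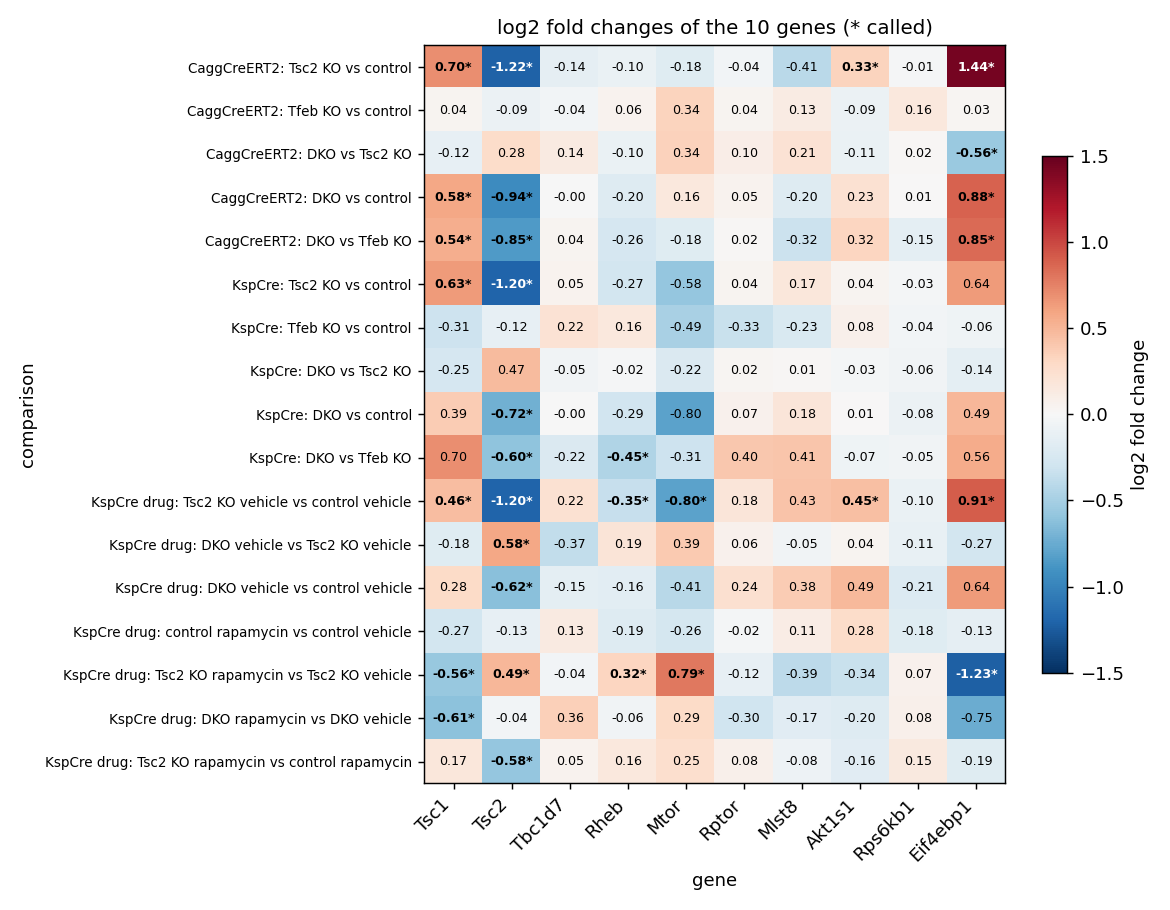
log2 fold changes of the 10 genes (columns) in the comparisons between groups (lines of the plot), red for higher and blue for lower in the group named before "vs", with an asterisk where the gene was called. Tsc2 was called lower in every comparison of Tsc2 KO or DKO with mice that kept Tsc2, and the columns of Tbc1d7, Rptor, Mlst8 and Rps6kb1 hold no asterisk.

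Tsc2 is the targeted gene and the GTPase-activating subunit, and its values are given first. In the CaggCreERT2 cohort it was at 10.6, 10.6 and 9.81 FPKM in control and at 4.06, 4.14 and 4.55 FPKM in Tsc2 KO, at 9.34, 9.05 and 10.2 FPKM in Tfeb KO and at 5.26, 4.82 and 5.64 FPKM in DKO. Every Tsc2 KO and DKO library lay below every control and Tfeb KO library, and DKO lay above Tsc2 KO in all 3 libraries. Tsc2 fell in Tsc2 KO to 0.430 of control (log2 change -1.22, SE 0.09, adjusted p = 4.82e-06). It fell in DKO against control by 0.94 on the log2 scale (adjusted p = 5.53e-05) and against Tfeb KO by 0.85 (adjusted p = 0.000103). The higher value in DKO than in Tsc2 KO (log2 0.28, SE 0.09) had an adjusted p of 0.0720 in edgeR's test and of 0.0434 with DESeq2.

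In the KspCre cohort Tsc2 was at 8.77, 9.26 and 8.75 FPKM in control and at 3.54, 3.81 and 4.37 FPKM in Tsc2 KO. Tfeb KO libraries held 6.86, 7.87 and 9.88 FPKM and DKO libraries 5.27, 5.81 and 5.17 FPKM. Again the Tsc2 KO and DKO libraries did not overlap those of control and Tfeb KO, and DKO lay between Tsc2 KO and control. Tsc2 fell in Tsc2 KO to 0.436 of control (log2 -1.20, SE 0.14, adjusted p = 0.000388). In DKO it fell by 0.72 against control (adjusted p = 0.0199) and by 0.60 against Tfeb KO (adjusted p = 0.0285). DKO against Tsc2 KO was at log2 0.47 (SE 0.14, adjusted p = 0.166). The call in DKO against control was lost without control 1, 2 or 3 or without DKO 1 or 3, and that against Tfeb KO without Tfeb KO 2 or any DKO library.

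In vehicle-treated mice of the drug cohort Tsc2 was at 8.59, 9.65 and 9.81 FPKM in control, at 4.47, 3.92 and 3.80 FPKM in Tsc2 KO and at 5.53, 6.41 and 6.29 FPKM in DKO. The order of the 3 genotypes was that of the other cohorts, with no overlap between them. Tsc2 fell in Tsc2 KO to 0.435 of control (log2 -1.20, SE 0.10, adjusted p = 3.53e-07) and in DKO by 0.62 (adjusted p = 0.00261), and it was higher in DKO than in Tsc2 KO by 0.58 (SE 0.10, adjusted p = 0.000843). Proximal tubule markers moved with the last difference, from 344 to 558 FPKM in Tsc2 KO to 899 to 1620 FPKM in DKO with 5 of 6 markers called higher, and their part was not tested. With the 4 vehicle libraries that carry adrenal markers left out, 1 Tsc2 KO and 1 DKO library remained. The log2 value of Tsc2 KO against control was then -1.31, from the Tsc2 KO library with the lowest Tsc2 level (3.80 FPKM). DKO against Tsc2 KO (0.73) and DKO against control (-0.58) were not called.

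Under rapamycin Tsc2 was at 8.18, 8.56 and 8.93 FPKM in control, at 5.55, 6.503 and 5.06 FPKM in Tsc2 KO and at 5.85, 5.97 and 5.83 FPKM in DKO. The rapamycin-treated Tsc2 KO libraries lay above the vehicle-treated Tsc2 KO libraries and below every control library, and in DKO the treated libraries lay within the vehicle range. Tsc2 rose with rapamycin in Tsc2 KO (log2 0.49, SE 0.10, adjusted p = 0.00199) and stayed below rapamycin-treated control (-0.58, adjusted p = 0.0140). The latter call was lost without rapamycin-treated control 2 or 3 or Tsc2 KO 3, and with only these groups in the fit (-0.59, adjusted p = 0.121). Its value was -0.13 in control (adjusted p = 0.626) and -0.04 in DKO (adjusted p = 0.842). The summed FPKM of 6 proximal tubule markers moved with it, from 344 to 558 in vehicle-treated to 1366 to 1737 in rapamycin-treated Tsc2 KO, against 1449 to 1755 in vehicle-treated control, and their part in the result was not tested.

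Neither neighbour of Tsc2 had an adjusted p of at most 0.05 in edgeR's test in any comparison (smallest 0.211 for Pkd1 and 0.203 for Nthl1). Pkd1 stayed below a mean of 5 FPKM in every group and could not have been called. Pkd1, whose 3' end overlaps that of Tsc2, was at log2 -0.19, -0.26 and -0.08 in Tsc2 KO against control of the CaggCreERT2, KspCre and vehicle-treated cohorts. Nthl1, a base excision repair gene that starts 49 bases from Tsc2 in the other direction, was at 0.27, -0.29 and -0.36.

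**Figure D3:**
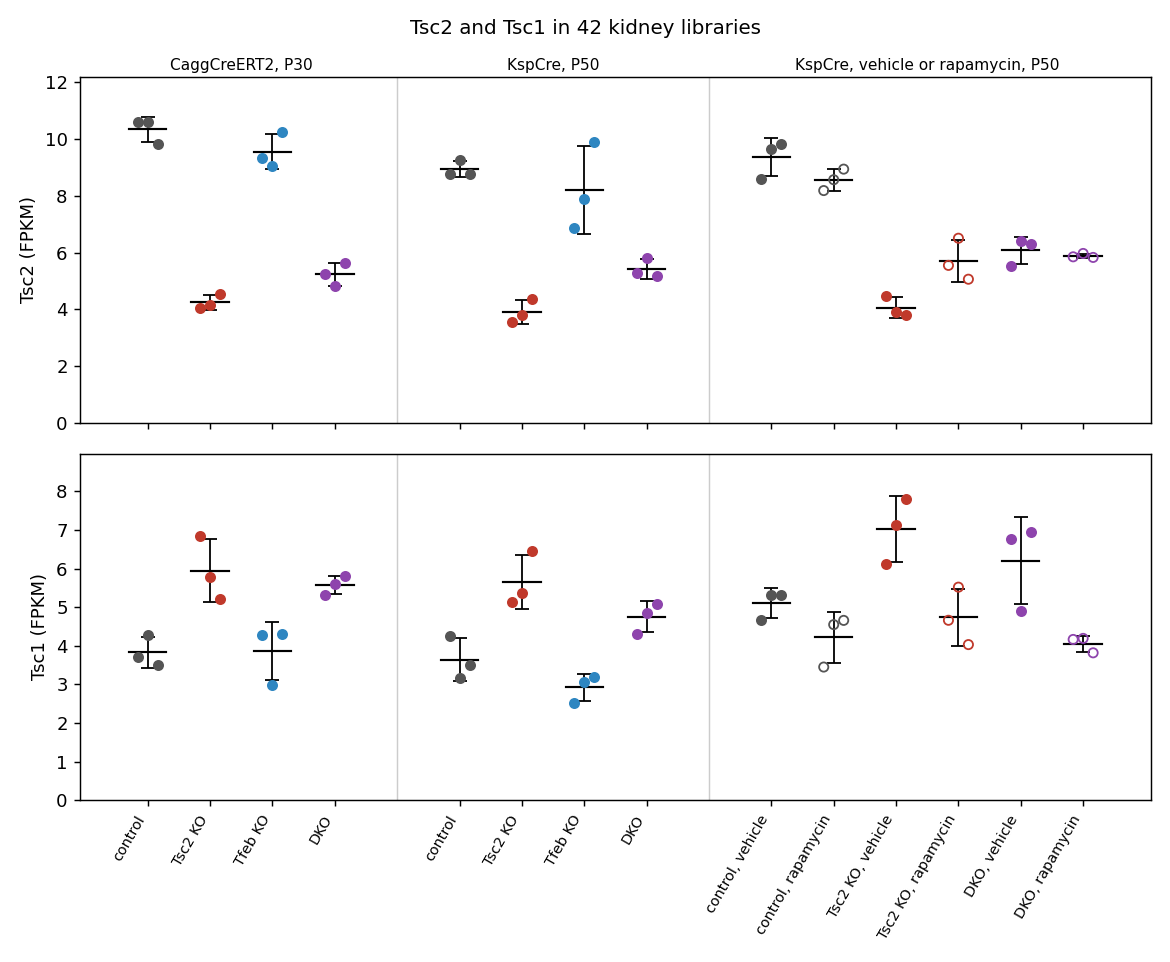
FPKM of Tsc2 (upper panel) and Tsc1 (lower panel) in the 42 libraries, with points for libraries (open under rapamycin) and black lines and bars for the mean and SD of 3. Tsc2 falls from 10.3 to 4.25 FPKM on average between control and Tsc2 KO of the CaggCreERT2 cohort while Tsc1 goes from 3.83 to 5.95 FPKM.

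Tsc1, the scaffold that stabilises tuberin, went the other way. It was at 3.72, 4.28 and 3.50 FPKM in CaggCreERT2 control, at 6.84, 5.79 and 5.22 FPKM in Tsc2 KO, at 4.27, 2.99 and 4.31 FPKM in Tfeb KO and at 5.33, 5.59 and 5.80 FPKM in DKO. All Tsc2 KO and DKO libraries lay above all control and Tfeb KO libraries, and Tsc2 KO and DKO overlapped. Tsc1 rose 1.62-fold in Tsc2 KO (log2 0.70, SE 0.15, adjusted p = 0.00443), by 0.58 in DKO against control (adjusted p = 0.0286) and by 0.54 in DKO against Tfeb KO (adjusted p = 0.0343). The Tsc2 KO call held with Xist as a covariate (0.63, adjusted p = 0.0490), whereas DKO against control (0.54, adjusted p = 0.0687) and DKO against Tfeb KO (0.63, adjusted p = 0.149) were not called with it. Without the 2 libraries whose genotype differs between the tables, these DKO values were 0.61 (adjusted p = 0.0619) and 0.67 (adjusted p = 0.0692). The call against control was also lost without control 1 or 3 or any DKO library, and that against Tfeb KO without Tfeb KO 2 or any DKO library, without both adrenal-marked Tfeb KO libraries (0.38, adjusted p = 0.199), and with only these groups in the fit. The proximal tubule markers moved in the opposite direction to Tsc1 in Tsc2 KO, as given with Eif4ebp1, and their part was not tested.

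In the KspCre cohort Tsc1 was at 4.25, 3.16 and 3.50 FPKM in control, at 5.13, 5.38 and 6.45 FPKM in Tsc2 KO, at 2.52, 3.06 and 3.19 FPKM in Tfeb KO and at 4.31, 4.85 and 5.09 FPKM in DKO. DKO lay above control and below Tsc2 KO in all libraries. Tsc1 rose 1.55-fold in Tsc2 KO (log2 0.63, SE 0.14, adjusted p = 0.0123), a call that was lost without control 2 or Tsc2 KO 3. Proximal tubule markers summed to 677 to 1325 FPKM in Tsc2 KO against 1499 to 1785 FPKM in control of this cohort, with 4 of 6 called lower, and proliferation markers to 11.9 to 16.4 against 1.05 to 2.83 FPKM. Their part in the results of this comparison was not tested. DKO against control was at 0.39 (adjusted p = 0.160). DKO against Tfeb KO was at 0.70 with an adjusted p of 0.0207, but neither group reached a mean of 5 FPKM and the difference was therefore not called.

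In the drug cohort Tsc1 was at 4.66, 5.33 and 5.32 FPKM in vehicle-treated control, at 6.11, 7.13 and 7.80 FPKM in Tsc2 KO and at 6.76, 4.90 and 6.95 FPKM in DKO. Under rapamycin it was at 3.45, 4.55 and 4.66 FPKM in control, 4.66, 5.52 and 4.03 FPKM in Tsc2 KO and 4.16, 4.19 and 3.82 FPKM in DKO. The vehicle-treated Tsc2 KO libraries lay above all vehicle-treated controls, and in Tsc2 KO and DKO every rapamycin library lay below every vehicle library. Tsc1 rose in Tsc2 KO (log2 0.46, SE 0.16, adjusted p = 0.0279) and fell with rapamycin by 0.56 in Tsc2 KO (SE 0.16, adjusted p = 0.0125) and by 0.61 in DKO (SE 0.16, adjusted p = 0.0324). In control the rapamycin value was -0.27 (adjusted p = 0.502), and the rapamycin effects in Tsc2 KO and control differed by -0.29 with an adjusted p of 0.373. Without the adrenal-marked libraries these values were 0.60 and -0.71 in Tsc2 KO and -0.77 in DKO, the last not called. Only 1 vehicle-treated library of each genotype then remained. That of Tsc2 KO was library 3, with the highest Tsc1 level of its group (7.80 FPKM). With single libraries left out, the rise in Tsc2 KO was not called without vehicle-treated control 1 or 3 or Tsc2 KO 2 or 3 (0.39 to 0.48, adjusted p = 0.0565 to 0.0998), and the fall with rapamycin in Tsc2 KO was not called without rapamycin-treated Tsc2 KO 3. The DKO call was also lost without vehicle-treated DKO 1 or 3 or any rapamycin-treated DKO library. The proximal tubule markers moved in the opposite direction to Tsc1 in Tsc2 KO. The summed macrophage and proliferation markers moved with Tsc1 there, by the values given with Eif4ebp1. Of the macrophage markers 3 were called higher and 1 lower in vehicle-treated Tsc2 KO against control. In DKO macrophage markers summed to 45.5 to 50.2 FPKM with vehicle and to 27.4 to 38.5 FPKM with rapamycin, with 2 called lower and 1 higher. The part of these markers was not tested.

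Tbc1d7, the smallest subunit of the complex, varied least of the 3 TSC genes. Its group means ran from 3.25 to 3.73 FPKM in the CaggCreERT2 cohort, from 2.71 to 3.14 FPKM in the KspCre cohort and from 2.63 to 3.39 FPKM in the drug cohort. In Tsc2 KO against control it was at log2 -0.14, 0.05 and 0.22 (95% intervals -0.43 to 0.15, -0.32 to 0.42 and -0.12 to 0.57). In Tfeb KO against control it was at -0.04 (-0.33 to 0.25) in the CaggCreERT2 and 0.22 (-0.16 to 0.59) in the KspCre cohort. No adjusted p was below 0.122.

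Rheb, the GTPase that the TSC complex switches off, was at 11.8, 11.8 and 12.2 FPKM in CaggCreERT2 control and at 10.5, 9.44 and 12.1 FPKM in Tsc2 KO, with overlapping groups. Tfeb KO libraries held 12.04, 13.5 and 11.04 FPKM and DKO libraries 10.02, 10.5 and 9.82 FPKM. DKO lay below control and Tfeb KO in every library, by log2 -0.20 (adjusted p = 0.257) and -0.26 (adjusted p = 0.121). No Rheb difference was called in this cohort.

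In the KspCre cohort Rheb was at 11.3, 11.3 and 10.2 FPKM in control, at 9.51, 9.19 and 8.53 FPKM in Tsc2 KO, at 12.7, 12.6 and 11.2 FPKM in Tfeb KO and at 9.24, 9.21 and 8.33 FPKM in DKO. Both groups without Tsc2 lay below both groups with it in all libraries. Rheb fell in DKO against Tfeb KO by 0.45 (SE 0.10, adjusted p = 0.0275), and this call was lost without Tfeb KO 1 or 2 or any DKO library. Against control the values were -0.27 in Tsc2 KO (adjusted p = 0.1002) and -0.29 in DKO (adjusted p = 0.140). Tfeb KO against control was at 0.16 (95% interval -0.06 to 0.38), and at 0.06 (-0.16 to 0.28) in the CaggCreERT2 cohort. Thick limb and distal tubule markers summed to 1849 to 3437 FPKM in KspCre DKO against 882 to 1569 FPKM in Tfeb KO, with 1 of 4 called higher. The median log2 change of the 4 markers was -0.01, so the higher sum was not a rise of the list as a whole. Proliferation markers summed to 6.42 to 11.8 against 1.68 to 3.88 FPKM in the same groups, with 0 called. Their part in the results of this comparison was not tested.

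Rheb in the drug cohort was at 10.2, 11.8 and 10.03 FPKM in vehicle-treated control, at 9.28, 7.76 and 8.05 FPKM in Tsc2 KO and at 9.67, 9.51 and 9.54 FPKM in DKO. With rapamycin it was at 9.12, 10.1 and 8.72 FPKM in control, at 8.95, 12.1 and 10.2 FPKM in Tsc2 KO and at 9.95, 8.67 and 8.96 FPKM in DKO. Vehicle-treated Tsc2 KO lay below control in all libraries, but rapamycin-treated Tsc2 KO overlapped vehicle-treated Tsc2 KO. Rheb fell in Tsc2 KO against control by 0.35 (SE 0.12, adjusted p = 0.0246) and rose with rapamycin in Tsc2 KO (log2 0.32, SE 0.12, adjusted p = 0.0471). Without the adrenal-marked libraries these values were -0.42 and 0.38 and were not called (adjusted p = 0.134 and 0.218). The fall in Tsc2 KO was also not called without vehicle-treated control 2 or Tsc2 KO 2 or 3, and the rapamycin call was also lost without vehicle-treated Tsc2 KO 2 or 3 or rapamycin-treated Tsc2 KO 2 or 3. The proximal tubule markers given beside Tsc2 moved with Rheb in Tsc2 KO as well, and their part was not tested.

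Mtor, the kinase, varied most between libraries of a group among the genes above 5 FPKM in KspCre controls, at 24.6, 18.2 and 14.9 FPKM. It was at 11.3, 11.3 and 16.1 FPKM in Tsc2 KO, at 10.8, 11.0 and 19.1 FPKM in Tfeb KO and at 8.92, 11.6 and 12.7 FPKM in DKO. Only the DKO libraries lay below all controls. The log2 value was -0.58 in Tsc2 KO (SE 0.26, adjusted p = 0.175) and -0.80 in DKO (SE 0.26, adjusted p = 0.122), and DESeq2 called the DKO value (adjusted p = 0.0397).

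In the CaggCreERT2 cohort Mtor was at 11.9, 14.2 and 12.1 FPKM in control, at 11.99, 11.1 and 9.03 FPKM in Tsc2 KO, at 16.8, 13.98 and 16.6 FPKM in Tfeb KO and at 13.8, 12.8 and 14.8 FPKM in DKO. Control overlapped each of the other groups. The log2 value was -0.18 in Tsc2 KO (adjusted p = 0.308) and 0.34 in Tfeb KO (SE 0.13, adjusted p = 0.524) against control. DKO lay above Tsc2 KO in all libraries (0.34, adjusted p = 0.111). Angptl7, the gene inside Mtor, was called in this cohort. It was at 33.4 to 38.3 FPKM in control, 52.0 to 101 FPKM in Tsc2 KO, 4.76 to 6.18 FPKM in Tfeb KO and 69.7 to 116 FPKM in DKO. It was lower in Tfeb KO than in control by 2.66 on the log2 scale (adjusted p = 0.000926). All 3 of these control libraries were male and all 3 Tfeb KO libraries female, so sex and Tfeb loss cannot be told apart here. Tfeb KO 1 and 2 also carried adrenal markers, whose part was not tested. In the other cohorts Angptl7 was not called. KspCre control libraries held 64.1, 6.10 and 1.55 FPKM of it, in the order of Mtor (24.6, 18.2 and 14.9 FPKM). KspCre Tsc2 KO libraries held 108, 95.1 and 68.4 FPKM of Angptl7, with Mtor at 11.3, 11.3 and 16.1 FPKM. In the drug cohort Angptl7 ran from 10.7 to 141 FPKM. Whether its reads add to the Mtor values was not tested.

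Mtor in the drug cohort was at 13.8, 18.1 and 18.9 FPKM in vehicle-treated control, at 9.17, 9.22 and 10.7 FPKM in Tsc2 KO and at 14.2, 11.6 and 12.3 FPKM in DKO. With rapamycin it was at 12.04, 14.98 and 15.3 FPKM in control, at 14.2, 19.999 and 16.04 FPKM in Tsc2 KO and at 18.02, 13.4 and 15.2 FPKM in DKO. Vehicle-treated Tsc2 KO lay below all other groups of this cohort. Mtor fell in Tsc2 KO to 0.573 of control (log2 -0.80, SE 0.16, adjusted p = 0.000886) and rose 1.73-fold with rapamycin (log2 0.79, SE 0.16, adjusted p = 0.00145). The rapamycin value was -0.26 in control (adjusted p = 0.524) and 0.29 in DKO (adjusted p = 0.312). Without the adrenal-marked libraries the Tsc2 KO values were -0.68 (adjusted p = 0.0736) and 0.66 (adjusted p = 0.110), with 1 vehicle-treated Tsc2 KO library remaining. The proximal tubule markers moved with Mtor as they did with Tsc2, and their part was not tested.

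**Figure D4:**
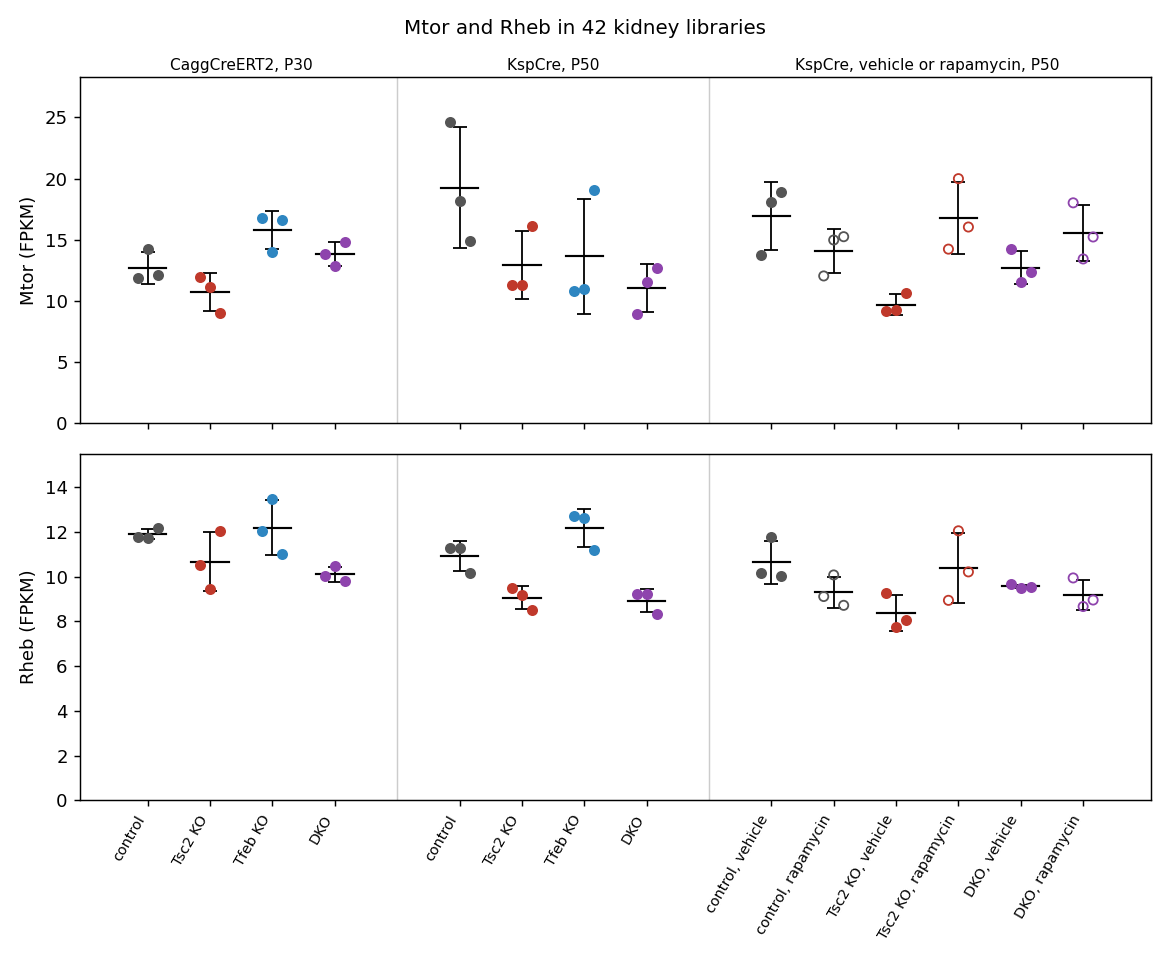
FPKM of Mtor (upper panel) and Rheb (lower panel) in the 42 libraries, drawn as points (open under rapamycin) with the mean and SD of 3. In the drug cohort vehicle-treated Tsc2 KO has the lowest mean of both genes, 9.69 FPKM for Mtor and 8.36 FPKM for Rheb.

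Rptor, the substrate-recruiting subunit, was not called in any comparison. Group means ran from 3.40 to 3.69 FPKM in the CaggCreERT2 cohort, from 2.86 to 3.78 FPKM in the KspCre cohort and from 3.46 to 4.27 FPKM in the drug cohort. Tsc2 KO against control was at log2 -0.04, 0.04 and 0.18 in these cohorts, with 95% intervals of -0.30 to 0.21, -0.31 to 0.40 and -0.02 to 0.37. The smallest adjusted p of any comparison was that of rapamycin in DKO (-0.30, adjusted p = 0.0705), where the 3 treated libraries (3.22 to 3.63 FPKM) lay below the 3 vehicle libraries (4.02 to 4.59 FPKM). Vehicle-treated Tsc2 KO (3.92 to 4.30 FPKM) and DKO lay above all vehicle-treated controls (3.43 to 3.85 FPKM), at 0.18 (adjusted p = 0.150) and 0.24 (adjusted p = 0.133). KspCre DKO (3.64 to 4.02 FPKM) lay above Tfeb KO (2.40 to 3.49 FPKM), at 0.40 (adjusted p = 0.146).

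Mlst8, which binds the catalytic domain of mTOR, had opposite values in different cohorts. It was at 3.13 to 3.73 FPKM in CaggCreERT2 control and at 2.29 to 2.62 FPKM in Tsc2 KO, with no overlap (log2 -0.41, SE 0.15, adjusted p = 0.0552). In vehicle-treated mice it was at 2.13 to 3.00 FPKM in control and at 2.87 to 3.87 FPKM in Tsc2 KO, with overlap (0.43, SE 0.16, adjusted p = 0.0499), and in the KspCre cohort at 0.17 (adjusted p = 0.65). It lay below 5 FPKM throughout and was not called, the difference between cohorts was not tested, and Bricd5, which shares exonic bases with it, had 0 counts.

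Akt1s1, the PRAS40 gene, was at 28.7, 25.6 and 30.0 FPKM in CaggCreERT2 control, at 32.1, 31.6 and 38.0 FPKM in Tsc2 KO, at 29.4, 25.3 and 23.1 FPKM in Tfeb KO and at 31.2, 31.5 and 33.4 FPKM in DKO. Every Tsc2 KO and DKO library lay above every control and Tfeb KO library. Akt1s1 rose 1.26-fold in Tsc2 KO (log2 0.33, SE 0.11, adjusted p = 0.0357), and the call was lost without any control library, without Tsc2 KO 1 or 3, and with Xist as a covariate (0.26, adjusted p = 0.234). The values of DKO were 0.23 against control (adjusted p = 0.223) and 0.32 against Tfeb KO (adjusted p = 0.0763).

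In KspCre mice Akt1s1 was at 26.3 to 28.2 FPKM in control and at 27.1 to 28.8 FPKM in Tsc2 KO, with overlapping groups and a log2 value of 0.04 (95% interval -0.23 to 0.31). In vehicle-treated mice it was at 22.2, 12.6 and 21.5 FPKM in control, at 28.2, 24.1 and 24.6 FPKM in Tsc2 KO and at 27.2, 26.1 and 25.97 FPKM in DKO. Control 2 was the lowest of the 42 libraries, and both knockout groups lay above all controls. Akt1s1 rose in Tsc2 KO (0.45, SE 0.17, adjusted p = 0.0486), and the call was lost without control 2, without any Tsc2 KO library and without the adrenal-marked libraries (0.38, adjusted p = 0.365). Rapamycin-treated Tsc2 KO libraries held 21.04, 16.3 and 23.3 FPKM, all below the vehicle-treated ones (-0.34, adjusted p = 0.155). In Tsc2 KO of the CaggCreERT2 and vehicle-treated cohorts the summed macrophage markers were higher and the summed proximal tubule markers lower than in control. The values are given with Tsc2 and Eif4ebp1, including 1 macrophage marker called lower in vehicle-treated mice. The part of these markers in the Akt1s1 results was not tested.

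Of the substrates, Rps6kb1 had group means of 3.78 to 4.36 FPKM in the CaggCreERT2 cohort, 3.25 to 3.44 FPKM in the KspCre cohort and 3.31 to 3.82 FPKM in the drug cohort. In Tsc2 KO against control it was at log2 -0.01, -0.03 and -0.10, with 95% intervals of -0.24 to 0.22, -0.31 to 0.25 and -0.38 to 0.19. Its smallest adjusted p over all comparisons was 0.364.

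Eif4ebp1, the gene of 4E-BP1, had the largest change of the 10 genes in CaggCreERT2 Tsc2 KO, whereas in both KspCre cohorts Tsc2 changed more in Tsc2 KO against control. In the CaggCreERT2 cohort it was at 10.5, 11.6 and 11.6 FPKM in control, at 31.2, 31.9 and 24.1 FPKM in Tsc2 KO, at 11.9, 10.8 and 11.1 FPKM in Tfeb KO and at 20.5, 18.9 and 20.9 FPKM in DKO. Control and Tfeb KO overlapped, DKO lay above both, and Tsc2 KO lay above DKO. Eif4ebp1 rose 2.70-fold in Tsc2 KO (log2 1.44, SE 0.12, adjusted p = 8.41e-06) and 1.84-fold in DKO (0.88, SE 0.12, adjusted p = 0.000535), and it fell in DKO against Tsc2 KO by 0.56 (SE 0.12, adjusted p = 0.0117). The last of these calls was lost without Tsc2 KO 1, and 5 of 6 proximal tubule markers were called higher in the same comparison (1178 to 1443 FPKM in DKO). Against Tfeb KO it rose in DKO by 0.85 (adjusted p = 0.000641), and Tfeb KO against control was at 0.03 (95% interval -0.22 to 0.29). Macrophage markers summed to 88.4 to 128 FPKM in Tsc2 KO against 67.0 to 80.2 FPKM in control, and proximal tubule markers to 387 to 876 against 1698 to 1935 FPKM, and their part in the result was not tested.

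In the KspCre cohort Eif4ebp1 was at 9.45, 7.52 and 7.86 FPKM in control, at 10.6, 18.4 and 9.72 FPKM in Tsc2 KO, at 8.48, 9.44 and 5.83 FPKM in Tfeb KO and at 13.7, 11.8 and 9.37 FPKM in DKO. Tsc2 KO lay above control in all libraries but was led by Tsc2 KO 2. The log2 value was 0.64 (SE 0.26, adjusted p = 0.126, 95% interval 0.08 to 1.2), so no change was called. DKO overlapped both control and Tsc2 KO, at 0.50 (adjusted p = 0.316) and -0.14 (adjusted p = 0.872).

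In the drug cohort it was at 11.1, 6.92 and 5.47 FPKM in vehicle-treated control, at 18.1, 12.2 and 13.97 FPKM in Tsc2 KO and at 10.8, 13.9 and 12.03 FPKM in DKO. With rapamycin it was at 5.88, 6.40 and 9.13 FPKM in control, at 5.66, 5.17 and 7.99 FPKM in Tsc2 KO and at 8.82, 6.03 and 6.97 FPKM in DKO. Every rapamycin library of Tsc2 KO and DKO lay below every vehicle library of the same genotype, and the treated groups overlapped treated control. Eif4ebp1 rose 1.88-fold in vehicle-treated Tsc2 KO (log2 0.91, SE 0.25, adjusted p = 0.00961) and fell with rapamycin to 0.426 of vehicle (-1.23, SE 0.26, adjusted p = 0.00187). In DKO the rapamycin value was -0.75 (adjusted p = 0.0967, and 0.0477 with DESeq2), and rapamycin-treated Tsc2 KO was at -0.19 against treated control (95% interval -0.73 to 0.36). Without the adrenal-marked libraries the Tsc2 KO values were 0.82 (adjusted p = 0.139) and -1.15 (adjusted p = 0.0576), and the rise in Tsc2 KO was also not called without vehicle-treated control 3. Of the macrophage markers 3 were called higher and 1 lower in vehicle-treated Tsc2 KO against control. Their sum moved with Eif4ebp1, from 38.0 to 46.3 FPKM in vehicle-treated control to 66.9 to 126 FPKM in vehicle-treated and 32.4 to 57.8 FPKM in rapamycin-treated Tsc2 KO. Proliferation markers summed to 0.85 to 1.44, 7.58 to 24.4 and 1.84 to 2.01 FPKM in the same groups, and the proximal tubule markers moved the opposite way. Their part in the result was not tested.

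**Figure D5:**
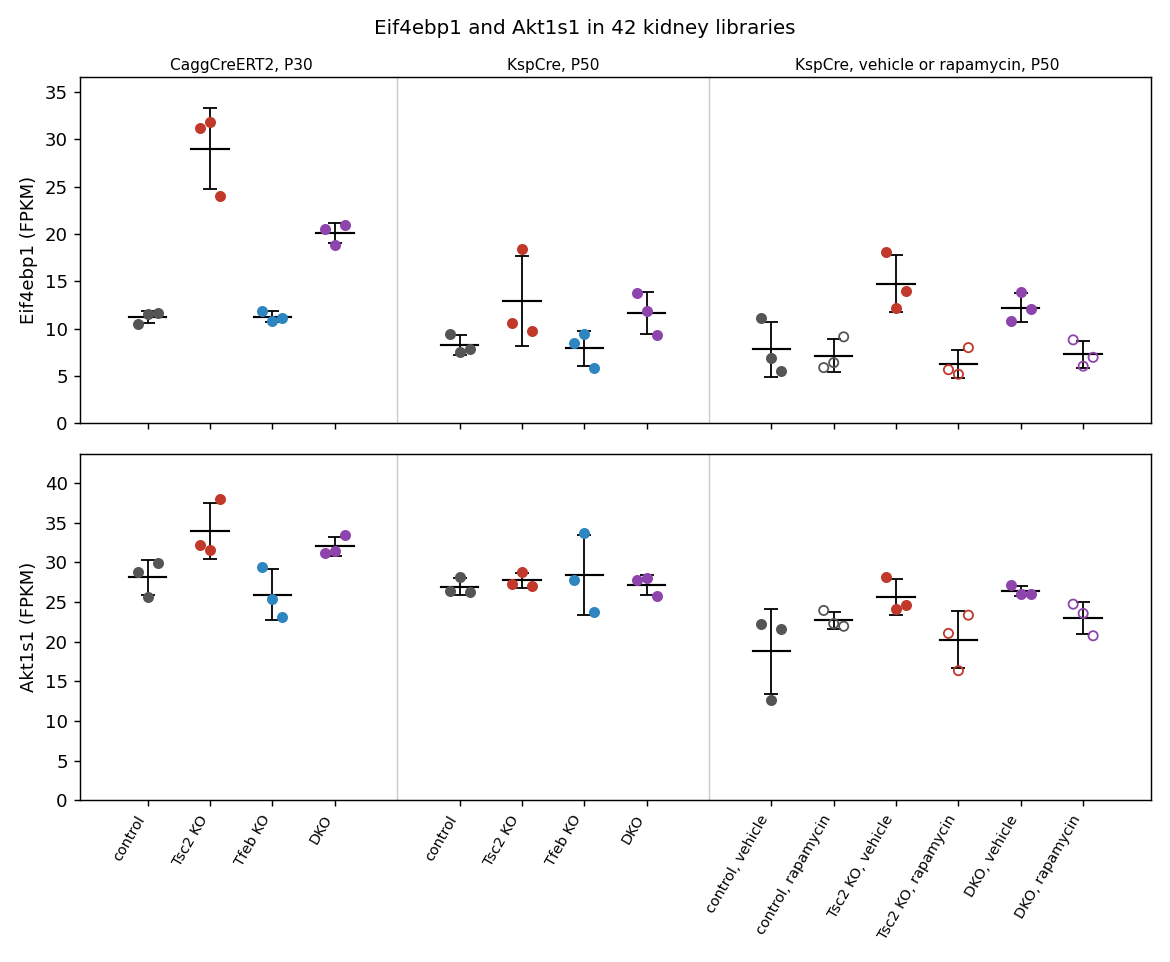
FPKM of Eif4ebp1 (upper panel) and Akt1s1 (lower panel) in the 42 libraries, drawn as points (open under rapamycin) with the mean and SD of 3. Mean Eif4ebp1 is 29.0 FPKM in Tsc2 KO, 20.1 FPKM in DKO and 11.2 FPKM in control of the CaggCreERT2 cohort, and 14.8 and 6.27 FPKM in vehicle-treated and rapamycin-treated Tsc2 KO.

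Differences between effects were tested as interaction terms. The effect of Tsc2 loss with and without Tfeb did not differ for any member at the adjusted threshold in edgeR's test (2.13% of genes were called in CaggCreERT2 and 0% in untreated KspCre mice). In the CaggCreERT2 cohort Eif4ebp1 was at -0.59 (SE 0.17, adjusted p = 0.101, and 0.0422 with DESeq2, which called 1 member) and Tsc2 at 0.36 (adjusted p = 0.181), the 2 members below an unadjusted p of 0.05. In the KspCre cohort Tsc2 was at 0.59 (adjusted p = 0.416), the 1 member below an unadjusted p of 0.05, and DESeq2 called 0. The effect of rapamycin in Tsc2 KO minus that in control was called for 4 members (29.8% of genes), namely Tsc2 (0.62, SE 0.15, adjusted p = 0.00728), Rheb (0.51, SE 0.16, adjusted p = 0.0350), Mtor (1.06, SE 0.23, adjusted p = 0.00389) and Eif4ebp1 (-1.10, SE 0.36, adjusted p = 0.0405). Without the adrenal-marked libraries, which leaves 1 vehicle-treated Tsc2 KO library, the Tsc2 value was 0.73. Those of Rheb, Mtor and Eif4ebp1 were not called. The effect in DKO minus that in Tsc2 KO was called for Tsc2 (-0.54, SE 0.15, adjusted p = 0.0357), where 11.0% of genes were called, a call that was lost without any of 8 libraries.

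The other genes of the pathway were taken as 4 lists of 7, 14, 16 and 14 genes, of which 7, 14, 15 and 14 were tested. Their counts are given for Tsc2 KO against control of the CaggCreERT2, KspCre and vehicle-treated cohorts in this order. Among all tested genes that reached 5 FPKM, 23.0%, 9.42% and 23.8% rose and 15.5%, 8.74% and 24.6% fell. Vehicle-treated Tsc2 KO 1 and 2 carry adrenal markers (914 and 30.9 FPKM), and the lists were not counted without them. Proximal tubule, macrophage and proliferation markers also moved in that comparison, by the values given with Tsc2 and Eif4ebp1. Their part in the list counts was not tested. Of the 7 partners of mTOR outside the core of mTORC1, 4 reached 5 FPKM in each cohort and could be called, and of these 0 rose and 1, 2 and 2 fell. Deptor, an inhibitory partner of both mTOR complexes, fell in all 3 by 0.57, 0.92 and 0.74 on the log2 scale, and Prr5, a subunit of mTORC2, fell by 0.82 and 0.75 in both KspCre cohorts. Deptor rose with rapamycin in Tsc2 KO (0.63). The medians of the list were 0.14, 0.00 and -0.05. With rapamycin against vehicle in Tsc2 KO, 4, 12, 7 and 12 genes of the 4 lists could be called. Of these 1, 2, 3 and 1 rose and 0, 2, 3 and 2 fell, beside 38.5% of all such genes called in either direction.

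Of the 14 growth factor and energy inputs to the TSC complex, 12, 11 and 12 could be called, and of these 2, 1 and 3 rose and 0, 0 and 2 fell, where 38.4%, 18.2% and 48.5% of all such genes were called in either direction (medians 0.18, 0.12 and 0.06). Ddit4 (REDD1), a stress-induced inhibitor of mTORC1 that acts through the TSC complex, rose by 1.5, 1.56 and 2.17, and fell with rapamycin by 2.04. Akt1, the kinase that phosphorylates tuberin and PRAS40, rose by 0.58 in CaggCreERT2 and by 0.93 in vehicle-treated Tsc2 KO, and Pik3cb, a catalytic subunit of PI3-kinase, fell by 0.93 in the latter. Of the 15 tested amino acid inputs outside the Rag, Ragulator and folliculin genes, 8, 7 and 7 could be called, and of these 3, 3 and 4 rose and 1, 1 and 3 fell, so that in vehicle-treated mice all 7 were called against 48.5% of all such genes (medians -0.03, 0.04 and 0.02). Sesn3 rose by 1.40, 1.96 and 1.75 and, in CaggCreERT2 mice, Sesn2 rose by 0.84. Sestrins restrain mTORC1 through GATOR2. The arginine sensor homologue Castor2 rose by 0.96, 1.09 and 0.91 and Sesn1 by 0.51 in KspCre mice, whereas the GATOR genes Nprl2 and Wdr24 fell by 0.61 and 0.63 in vehicle-treated mice.

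Of the 14 further substrates and effectors, 12 could be called in each cohort, and of these 5, 2 and 4 rose and 1, 0 and 2 fell (medians 0.24, 0.18 and 0.08). The 6, 2 and 6 called genes of 12 stand beside 38.4%, 18.2% and 48.5% of all genes that reached 5 FPKM, shares near that background. Grb10, an adaptor stabilised by mTORC1 that dampens insulin signalling, rose by 1.06, 0.61 and 0.69 and fell with rapamycin by 0.83. Eif4ebp2, the paralogue of Eif4ebp1, rose by 0.44 and the autophagy kinase gene Ulk1 by 0.48 in CaggCreERT2 Tsc2 KO. Pdcd4, a translation inhibitor degraded after S6 kinase phosphorylation, rose by 0.39 and 0.68 in the KspCre cohorts, and Lpin1, a phosphatidate phosphatase, fell by 1.25 in vehicle-treated Tsc2 KO.

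Over the 14 group means, each centred within its cohort, Tsc1 and Eif4ebp1 had a Pearson correlation of 0.899 and Tsc1 and Tsc2 of -0.821. Akt1s1 and Eif4ebp1 had 0.778, and Mtor and Tsc2 0.612. The points share controls, library scaling and genotype contrasts, and the values describe these groups only. Among 7261 genes the protein-coding genes most like Tsc2 by this measure were Pank4 (0.956), Ehd3 (0.946), Cwh43 (0.946), Klf15 (0.942) and Slc5a1 (0.940). Those most like Eif4ebp1 were Sdf2l1 (0.981), Tubb6 (0.968), Ccm2 (0.967), Trnp1 (0.964) and Mfge8 (0.964).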

How the data were processed

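Poly-A RNA of whole kidney had been made into non-directional libraries. The authors deposited, per cohort, a table of counts, whole numbers per gene without normalization, and a table of FPKM, scaled by gene length and library size by the authors. The submitters' processing notes name STAR 2.6.1d, HISAT2 2.0.5, featureCounts 1.5.0-p3, DESeq2 1.20.0 and mm10, without roles. Count and FPKM columns of the CaggCreERT2 cohort were joined by their values (50 reads or more, SD of the log ratio at most 2.4e-10 for joined columns and at least 0.204 for others). Of 54532 identifiers, 54495 were in GENCODE M21, 53585 with the same start and end.

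Counts were tested in R 4.3.3 with edgeR 4.0.16 (filterByExpr, TMM, glmQLFit, glmQLFTest), 1 fit per cohort over all its groups, Benjamini-Hochberg adjustment over all genes tested, and 95% confidence intervals. The thresholds of a call, an adjusted p up to 0.05 and 5 FPKM, are those of the study's methods, which do not say to which value the minimum applies. Here it was the mean of at least 1 group compared. Alternatives were DESeq2 1.42.0, limma 3.58.1 on log2(FPKM + 1), RLE, no filter on low counts, no FPKM minimum or 5 FPKM in every library, only the groups compared, a replicate block, Xist as a covariate, the count table's names, and single libraries left out. Leaving out the libraries with adrenal markers, and those whose genotype differs between the tables, was chosen after seeing the data. The code was tested on simulated data. Members and lists were chosen with earlier results of these data known. Named are all members, up to 3 called genes per pathway list and cohort with the smallest adjusted p in Tsc2 KO against control, genes overlapping or next to a member, and the 5 genes most like Tsc2 and Eif4ebp1. Libraries of a group all differed by more than sampling noise (chi-square per gene 15.6 to 82.4).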

Additional observations from a re-analysis of the deposited data

Results flagged for a closer look

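The effect of rapamycin differed between Tsc2 KO and control mice, by a test of the difference itself, for Tsc2 (0.62 on the log2 scale), Rheb (0.51), Mtor (1.06) and Eif4ebp1 (-1.10), where 29.8% of all genes that reached 5 FPKM were called in the same test. Without the libraries with adrenal markers, which leaves 1 vehicle-treated Tsc2 KO library, the differences for Rheb (0.58), Mtor (0.93) and Eif4ebp1 (-1.004) were not called. With only the groups compared in the fit, those for Tsc2 and Mtor were called.

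Between DKO and Tsc2 KO mice the difference was called for Tsc2 (-0.54), where 11.0% of genes were called. This call was lost when any of 8 single libraries was left out, without the libraries with adrenal markers (-0.69, adjusted p = 0.185), with only the groups compared (-0.52, adjusted p = 0.0779), with no filter on low counts, with 5 FPKM asked of every library and with limma.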

How the results depend on the processing

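Alternatives were run for the 72 member values with an unadjusted p below 0.05 and for the counts of called members, not for the smaller differences. None of the 72 turned its direction, and RLE scaling moved no count of called members by more than 1.5 times. Counting error weighs more at low counts, and Mlst8 and Tbc1d7 had as few as 71 and 142 counts in a library. Under the FPKM minimum 4 members could not be called in any comparison. Of these Mlst8 alone had an adjusted p up to 0.05, in vehicle-treated Tsc2 KO against control. Rptor, Tbc1d7 and Rps6kb1 stayed above 0.05 in every comparison. DESeq2 called 2 members in CaggCreERT2 DKO against Tsc2 KO, 1 in the CaggCreERT2 interaction, 2 in KspCre DKO against control and 2 in DKO with rapamycin against vehicle. With 5 FPKM asked of every library, which by its construction leaves fewer genes, 2 were called in CaggCreERT2 Tsc2 KO against control, 1 each in DKO against control and against Tfeb KO, 0 in KspCre Tsc2 KO against control, 0 in vehicle-treated DKO against Tsc2 KO, 3 in Tsc2 KO and 0 in DKO with rapamycin against vehicle, and 0 in the interaction of DKO minus Tsc2 KO. With only the groups compared in the fit, 0 were called in KspCre DKO against Tfeb KO, 0 in rapamycin-treated Tsc2 KO against control, 2 in the interaction of Tsc2 KO minus control and 0 in that of DKO minus Tsc2 KO. The last was also 0 with no filter on low counts and with limma, and no filter left 1 in KspCre DKO against Tfeb KO. With no filter, and also with only the groups compared, Akt1s1 was lost in CaggCreERT2 Tsc2 KO against control. The same settings each lost Rheb and Akt1s1 in vehicle-treated Tsc2 KO against control and Rheb in Tsc2 KO with rapamycin. No filter lost Rheb in the interaction of Tsc2 KO minus control. Only the groups compared lost Tsc1 in CaggCreERT2 DKO against Tfeb KO and in DKO with rapamycin. Limma also lost Akt1s1 in CaggCreERT2 Tsc2 KO and Tsc1 in DKO against control and Rheb in Tsc2 KO with rapamycin, and the replicate block lost Rheb there and Tsc1 in both CaggCreERT2 comparisons of DKO with mice that kept Tsc2. The cause of these changes was not tested.

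Under the count table's names 0 members were called in the 3 CaggCreERT2 comparisons of DKO (with Tsc2 KO, control and Tfeb KO), where the groups then mix genotypes of the FPKM table. Without the libraries whose genotype differs between the tables, 1, 2 and 2 were called there. Without the libraries with adrenal markers, which leaves 1 vehicle-treated library each of Tsc2 KO and DKO, assumed to vary like the other groups, 2 were called in vehicle-treated Tsc2 KO against control (Tsc1 and Tsc2), 0 in DKO against Tsc2 KO, 0 in DKO against control, 2 and 0 with rapamycin against vehicle in Tsc2 KO and DKO, 1 in the interaction of Tsc2 KO minus control and 0 in that of DKO minus Tsc2 KO.

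With single libraries left out, the CaggCreERT2 counts ran from 3 to 4 in Tsc2 KO against control, from 0 to 1 in DKO against Tsc2 KO (0 without Tsc2 KO 1), from 2 to 3 in DKO against control, from 2 to 4 in DKO against Tfeb KO and from 0 to 1 in the interaction (1 without Tsc2 KO 3). KspCre counts ran from 1 to 2 in Tsc2 KO against control (1 without control 2 or Tsc2 KO 3), from 0 to 1 in DKO against control and from 0 to 2 in DKO against Tfeb KO. Drug cohort counts ran from 3 to 5 in vehicle-treated Tsc2 KO against control (3 without Tsc2 KO 2 or 3), from 1 to 2 in DKO against control (2 without control 1), from 3 to 5 in Tsc2 KO and 0 to 1 in DKO with rapamycin against vehicle (3 without rapamycin-treated Tsc2 KO 3), from 0 to 1 in rapamycin-treated Tsc2 KO against control (0 without control 2 or 3 or Tsc2 KO 3), from 2 to 5 in the interaction of Tsc2 KO minus control (2 without vehicle-treated control 2, rapamycin-treated control 3, vehicle-treated Tsc2 KO 3 or rapamycin-treated Tsc2 KO 2) and from 0 to 1 in that of DKO minus Tsc2 KO (0 without vehicle-treated Tsc2 KO 2 or 3, rapamycin-treated Tsc2 KO 2, vehicle-treated DKO 2 or 3, or rapamycin-treated DKO 1, 2 or 3).

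Deviations of libraries of equal number had a median correlation of 0.009, -0.040 and -0.005 in the CaggCreERT2, KspCre and drug cohorts. In these cohorts 3 of 12, 6 of 12 and 4 of 18 libraries correlated best with their own number. With 3 libraries per group, these values cannot exclude that libraries of equal number share an origin. With the replicate block 4, 2 and 6 members were called in Tsc2 KO against control of these cohorts, 2 in CaggCreERT2 DKO against control and against Tfeb KO, 4 in Tsc2 KO with rapamycin against vehicle, 5 in the interaction of Tsc2 KO minus control, and in the other comparisons as many as without it. By Spearman correlation 0 of the 5 genes most like Tsc2 and 1 of those most like Eif4ebp1 were the same.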
